A study of Mus musculus with 50 samples.

Results

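The nuclear RNA of motor neurons grown for 28 days in vitro (DIV28) with or without tetrodotoxin (TTX), a toxin that plugs the pore of voltage-gated sodium channels and so stops action potentials, was compared across all genes. The members were chosen by condition, as the RNA libraries of DIV28 cultures with TTX (n = 3) and without it (n = 3), and are 6 of the 50 libraries of the series, 28 of which hold RNA. All 6 came from motor neurons differentiated from a single mouse embryonic stem cell line, Chat-Cre;SUN1-GFP, derived from blastocysts carrying both transgenes on a C57BL/6 background. Cre is expressed from the Chat locus, so that nuclei of cholinergic cells carry a GFP-tagged nuclear membrane protein and can be pulled down with beads. The motor neurons of both groups grew on an astrocyte-enriched layer of glia from the cortex of newborn mice, in serum-containing medium with GDNF, BDNF, CNTF and IGF and, early on, the antimitotic agents uridine and fluorodeoxyuridine. The treated cultures received 1 µM TTX from DIV0 to DIV28. The plates of an experiment were mixed before the nuclei were purified, so each library is a pool of plates, and the RNA is nuclear.

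One untreated library is titled as replicate 3 of DIV0, while the study's supplementary list of values has it as replicate 3 of DIV28. On log2 CPM its profile correlated at 0.928 and 0.929 with the other untreated DIV28 libraries, at 0.955 with the TTX library of the same number, and at 0.637 and 0.636 with the DIV0 libraries. It was kept at DIV28, and the adjusted p without a pair is given beside each called gene whose call is lost when that pair is left out. Totals ranged from 4206305 to 21823500 expected counts per library. By the study's notes on its expression values, same-numbered libraries with and without TTX are paired cultures that grew in parallel. Deviations from the group means correlated at 0.686, 0.568 and 0.740 within pairs 1, 2 and 3, and negatively (-0.440 to -0.223) between libraries of different number. The negative values are no separate evidence of pairing. Deviations of 3 libraries from their own mean cancel out, so positive values within pairs force negative ones elsewhere.

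Neurons couple electrical activity to transcription mainly through calcium. Depolarisation opens calcium channels and NMDA receptors, calcium acts on calmodulin-dependent kinases and on calcineurin, and these switch on the factors CREB, SRF, MEF2 and NFAT, which within minutes induce immediate early genes such as Fos and Npas4. The products of these genes then adjust slower programmes, among them neuropeptides, ion channels and synaptic proteins, and chronic silencing of a culture is known to evoke compensatory changes in excitability and in synapses.

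The promoters of 3 genes that fell are shown as examples of elements known from activity-dependent transcription. They were picked for holding such an element, and the binding of any factor there was not measured. The sequences are from RefSeq (GRCm38.p6), run from 250 bases before to 50 bases after the start on the sense strand, and capitals mark the element. Btg2 and Pcsk1 are shown for the palindrome TGACGTCA, the cAMP response element to which CREB binds, and Calca for a match to the MEF2 consensus.
Btg2, chr1:134079106-134079405, minus strand: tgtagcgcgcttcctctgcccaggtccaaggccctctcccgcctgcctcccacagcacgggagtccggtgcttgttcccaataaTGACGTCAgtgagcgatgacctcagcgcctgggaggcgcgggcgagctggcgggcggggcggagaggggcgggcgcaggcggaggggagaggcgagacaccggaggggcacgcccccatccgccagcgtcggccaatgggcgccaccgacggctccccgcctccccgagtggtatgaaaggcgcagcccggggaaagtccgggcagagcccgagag
Pcsk1, chr13:75089607-75089906, plus strand: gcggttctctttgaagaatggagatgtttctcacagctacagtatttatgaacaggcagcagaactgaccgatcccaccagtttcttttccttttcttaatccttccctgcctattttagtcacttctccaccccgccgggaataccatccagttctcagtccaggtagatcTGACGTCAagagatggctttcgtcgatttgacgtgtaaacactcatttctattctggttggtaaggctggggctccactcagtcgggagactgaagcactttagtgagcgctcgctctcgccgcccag
Calca, chr7:114636308-114636607, minus strand: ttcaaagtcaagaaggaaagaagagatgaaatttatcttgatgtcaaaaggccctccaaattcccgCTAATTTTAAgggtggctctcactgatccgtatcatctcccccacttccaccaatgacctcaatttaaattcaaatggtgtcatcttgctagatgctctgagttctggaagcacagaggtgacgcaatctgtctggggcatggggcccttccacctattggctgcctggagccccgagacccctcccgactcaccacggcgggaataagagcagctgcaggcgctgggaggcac
The element began at position -166 in Btg2, -78 in Pcsk1 and -184 in Calca, counted from the start of transcription. Promoter sequences were matched by symbol for 7779 of the 10764 genes tested, which gave 10108 promoters, as several genes have more than 1. On either strand, TGACGTCA was present in 3.74% of the 535 promoters of genes called lower, 2.24% of the 535 of genes called higher and 3.26% of all promoters. The AP-1 site TGANTCA, bound by Fos and Jun proteins, was in 5.23% and 5.98% against 4.73% of all. The CArG box of SRF was in 1.5% and 1.31% against 1.18%, and the MEF2 consensus in 3.74% and 1.31% against 1.53%. These shares describe letters in a short window, and distal elements were not searched.

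Of 10764 genes tested, 540 were lower with TTX (5.02%) and 609 higher (5.66%) at an adjusted p under 0.05 in edgeR's quasi-likelihood test with the culture pair as a block. These shares are the background for the counts of each gene list below, several of which lie near them. The genes of largest fall included the stress-response co-regulator Nupr1, the calcineurin-dependent factor Nfatc2 and the neuropeptide gene Calca, and the genes of largest rise the collagen Col25a1, the imprinted gene Nnat and the ephrin receptor Epha4. The first 3 passed the filter of 5 CPM only through their untreated libraries and the last 3 only through their TTX libraries. This favours a gap between the groups. It holds too for genes below with a library well under 5 CPM in 1 group, such as Cntn3, Adamts9, Glra1 and Ak4. Most changes were moderate: the median absolute log2 fold change was 0.83 among the lower and 0.71 among the higher genes, and 204 and 161 genes passed 2-fold. At the limits used in the study, an unadjusted p under 0.001 together with a 2-fold or larger difference, 154 genes were lower (1.43%) and 127 higher (1.18%). With pair 3 left out, 293 genes were lower and 310 higher. Without the pair as a block, 13 and 4 genes were called, and scaling by library size alone gave 430 lower and 965 higher.

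**Figure D1:**
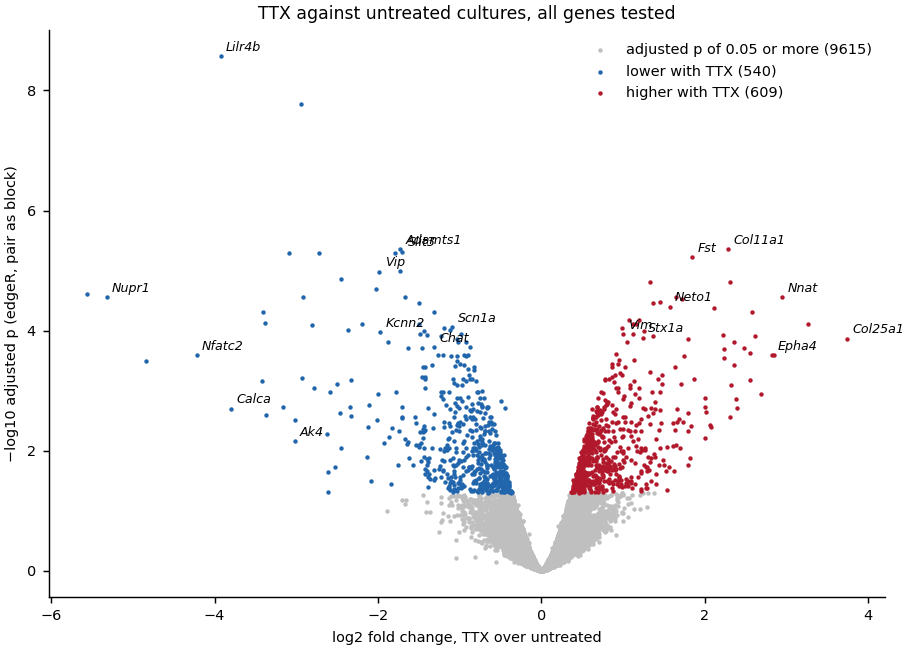
Each point is 1 of the 10764 genes tested, with the log2 fold change of TTX over untreated cultures on the x axis and −log10 of the adjusted p on the y axis; blue points are the 540 genes called lower, red points the 609 called higher, and named genes are among those described in the text. Among labelled genes, falls reach a log2 fold change of -5.32 for Nupr1 and rises 3.74 for Col25a1.

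Immediate early transcription factors were the first group of interest, since they report recent activity. Of 22 genes on this list 10 were tested, of which 4 fell and 1 rose, with a median log2 fold change of -0.41 against 0.01 over all genes tested. Npas4, a neuron-specific factor induced by calcium influx, had 7.92, 6.5 and 16.3 CPM untreated and 1.93, 2.98 and 4.23 CPM with TTX in pairs 1, 2 and 3. The log2 fold change was -1.64 ± 0.34 (adjusted p = 0.0077, but 0.097 without pair 3). Here and for all log2 fold changes, ± gives a standard error derived from the F statistic of edgeR's test, and not an SD over pairs. All treated libraries lay under all untreated ones. Npas4 was kept only because its untreated libraries all reached the filter of 5 CPM, which favours such a gap. Btg2, an antiproliferative co-regulator of transcription, measured 10.9, 20.4 and 19.6 CPM untreated and 4.3, 6.22 and 4.86 CPM with TTX. It fell in every pair, with a log2 fold change of -1.70 ± 0.28 (adjusted p = 0.0018). Fosl2, a slower Fos family member that pairs with Jun to form AP-1, fell by 1.03 ± 0.13 on the log2 scale (adjusted p = 0.00032) and Jun itself by 0.40 ± 0.11 (adjusted p = 0.033, but 0.12 and 0.19 without pairs 2 and 3 in turn). Atf3, a factor induced by stress and axonal injury, went the other way, with 45.1, 124 and 28.5 CPM untreated and 55.9, 208 and 36.6 CPM with TTX (log2 fold change 0.49 ± 0.13, adjusted p = 0.025, but 0.21 and 0.08 without pairs 2 and 3 in turn). Fos was too low for the test: 3.76, 4.69 and 5.36 CPM untreated and 1.72, 0 and 0.845 CPM with TTX. Its untreated libraries all lay above the treated ones, of which 1 held no count.

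Downstream effectors of activity moved both ways. Of 24 tested, 7 fell and 2 rose, with a median log2 fold change of -0.34. Noct, a rhythmic phosphatase, had 87.9, 108 and 177 CPM untreated and 49.8, 37 and 72.5 CPM with TTX (log2 fold change -1.23 ± 0.14, adjusted p = 0.00012). The G-protein brake Rgs2 fell by 1.53 ± 0.28 on the log2 scale (adjusted p = 0.0034) and the prohormone convertase Pcsk1 by 1.48 ± 0.29 (adjusted p = 0.0049). Arc, which drives the uptake of AMPA receptors at synapses, measured 5.54, 10.8 and 14.6 CPM untreated and 3.01, 4.15 and 8.03 CPM with TTX; the treated value was lower in each pair, but the groups overlapped (log2 fold change -1.07 ± 0.31, adjusted p = 0.042, but 0.072, 0.091 and 0.19 without pairs 1, 2 and 3 in turn). Plk2, a kinase known to weaken synapses after prolonged activity, rose, with 43.8, 26.5 and 48.3 CPM untreated and 102, 51.2 and 112 CPM with TTX (log2 fold change 1.13 ± 0.13, adjusted p = 0.00011). Inhba, an activin subunit, also rose (log2 fold change 1.19 ± 0.22, adjusted p = 0.0035, but 0.13 without pair 3). Bdnf, the neurotrophin whose protein was also present in the medium, had 9.9, 7.99 and 19.5 CPM untreated and 12.2, 4.78 and 16.1 CPM with TTX, with a log2 fold change of -0.26 ± 0.28 (adjusted p = 0.62).

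Between calcium and the nucleus, 4 of 32 tested regulators fell and 3 rose, beside 5.02% and 5.66% of all genes. Nfatc2, one of the factors that calcineurin dephosphorylates when calcium rises, had 9.9, 12.5 and 9.62 CPM untreated and 1.29, 0.541 and 0 CPM with TTX. Every treated library was far under every untreated one, and 1 held no count (log2 fold change -4.22 ± 0.53, adjusted p = 0.00026). Nfatc2 too passed the filter only through its untreated libraries, which favours a gap. Cabp1, a calcium-binding modulator of calcium channels, fell by 1.19 ± 0.13 (adjusted p = 9e-05), and the class IIa histone deacetylases Hdac9 and Hdac5, which repress MEF2 targets, fell by 0.83 ± 0.11 (adjusted p = 0.00044) and 0.55 ± 0.16 (adjusted p = 0.045, but 0.081 and 0.27 without pairs 1 and 3 in turn). In the kinase branch, Camk1 and its activating kinase Camkk2 were higher, with log2 fold changes of 0.50 ± 0.11 (adjusted p = 0.011, but 0.11 without pair 3) and 0.49 ± 0.15 (adjusted p = 0.048, but 0.28 and 0.17 without pairs 1 and 3 in turn).

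**Figure D2:**
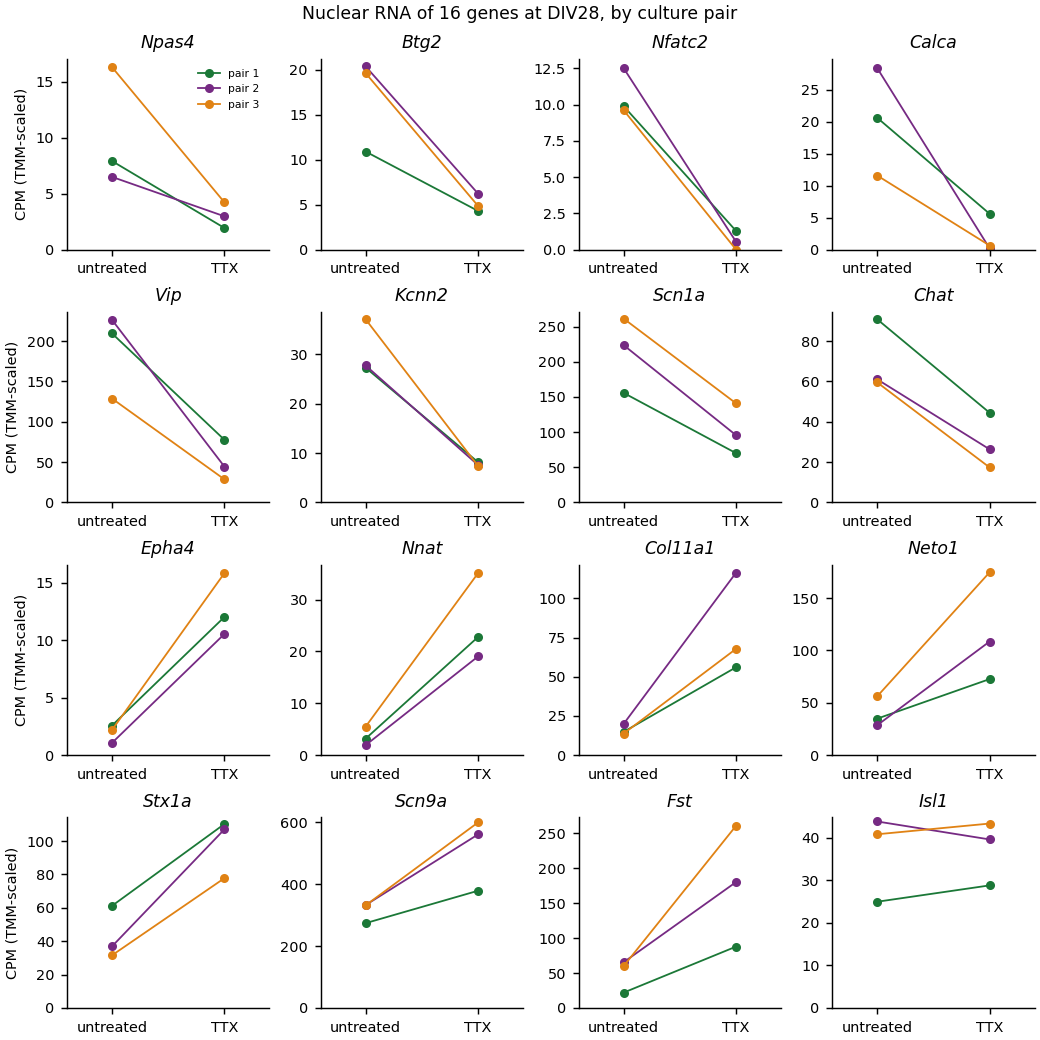
Each panel gives the TMM-scaled CPM of 1 gene in the 3 untreated and 3 TTX libraries, with a line joining the cultures of a pair; axes start at 0 and differ between panels. Npas4, Nfatc2, Calca, Kcnn2, Scn1a and Chat lie lower with TTX in every pair, Epha4, Nnat, Col11a1 and Neto1 higher, and Isl1 shows no shared direction.

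The target of TTX itself, the voltage-gated sodium channels, was next examined. Among 12 tested genes of the list 2 fell and 2 rose. Scn1a, which encodes the Nav1.1 channel, had 156, 224 and 262 CPM untreated and 70.0, 95.6 and 141 CPM with TTX; the treated library was lower in each pair and the groups did not overlap (log2 fold change -1.09 ± 0.12, adjusted p = 8.6e-05). On the length-corrected scale its level went from 12.3 ± 3.57 to 6.73 ± 2.84 TPM (SD, n = 3 each). Scn9a, encoding Nav1.7, rose, from 274, 332 and 331 CPM untreated and 379, 561 and 599 CPM with TTX (log2 fold change 0.69 ± 0.12, adjusted p = 0.0021). The beta subunit gene Scn3b rose as well, by 1.09 ± 0.18 on the log2 scale (adjusted p = 0.0018). Nalcn, the leak channel that TTX does not block, fell by 0.49 ± 0.15 (adjusted p = 0.046, but 0.22 and 0.063 without pairs 2 and 3 in turn). The remaining alpha subunits expressed, Scn2a, Scn3a and Scn8a, had log2 fold changes of -0.04 ± 0.11, 0.01 ± 0.11 and -0.13 ± 0.11 (adjusted p = 0.85, 0.97 and 0.51). Scn4a, Scn10a and Scn11a stayed under 1 CPM in all libraries. Per length, Scn2a was the most abundant alpha subunit in untreated cultures, at 50.6 ± 22.4 TPM (SD, n = 3), with Scn3a at 31.1 ± 11.1 TPM (SD, n = 3) and Scn8a at 21.8 ± 8.22 TPM (SD, n = 3), while Scn1a and Scn9a were lower at 12.3 ± 3.57 TPM (SD, n = 3) and 12.2 ± 1.16 TPM (SD, n = 3).

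Potassium channels, which repolarise the membrane, mostly fell where they changed. Of 36 tested, 9 were lower and 1 higher, with a median log2 fold change of -0.25. The small-conductance calcium-activated channels, which set the afterhyperpolarisation of motor neurons, stood first: Kcnn2 had 27.3, 27.8 and 37.1 CPM untreated and 8.16, 7.57 and 7.4 CPM with TTX (log2 fold change -1.98 ± 0.22, adjusted p = 0.00011). Its relative Kcnn3 fell by 1.43 ± 0.21 (adjusted p = 0.00091). Kcna2, an axonal delayed rectifier, measured 83.9, 132 and 151 CPM untreated and 46, 54.8 and 66.8 CPM with TTX, with no overlap between groups (log2 fold change -1.11 ± 0.12, adjusted p = 9.8e-05). The inward rectifier subunit Kcnj3 fell by 1.01 ± 0.19 (adjusted p = 0.0047), and Kcnk1, a 2-pore leak channel, by 0.99 ± 0.28 (adjusted p = 0.041, but 0.14 and 0.26 without pairs 1 and 3 in turn). Kcnh4 alone rose, at low level, by 1.03 ± 0.28 (adjusted p = 0.034, but 0.16 and 0.14 without pairs 1 and 3 in turn).

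Among 14 calcium channel genes tested, Cacna1b, the N-type channel of presynaptic terminals, rose from 417, 494 and 457 CPM untreated to 620.4, 719 and 708 CPM with TTX (log2 fold change 0.58 ± 0.11, adjusted p = 0.0034, but 0.052 without pair 3), as did the auxiliary subunit Cacna2d3 (0.66 ± 0.12, adjusted p = 0.0028). Cacna1h, a low-threshold T-type channel, fell by 0.68 ± 0.20 (adjusted p = 0.042, but 0.22 and 0.18 without pairs 1 and 3 in turn).

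Receptors for transmitters changed subunit by subunit. Of 15 ionotropic glutamate receptor genes tested 3 fell and 1 rose. The NMDA receptor subunits Grin1, which is obligatory, and Grin2a fell by 0.49 ± 0.11 (adjusted p = 0.013, but 0.11 without pair 3) and 0.77 ± 0.20 (adjusted p = 0.028, but 0.11 without pair 2), and the kainate subunit Grik3 by 0.57 ± 0.14 (adjusted p = 0.017, but 0.073 and 0.077 without pairs 2 and 3 in turn). No AMPA receptor gene is among these. Auxiliary proteins differed more: Neto1, a partner of kainate and NMDA receptors, had 34.8, 28.6 and 56.1 CPM untreated and 72.6, 108 and 175 CPM with TTX, with every treated library above every untreated one (log2 fold change 1.57 ± 0.15, adjusted p = 4e-05). Neto2 rose by 0.73 ± 0.13 (adjusted p = 0.0024), the metabotropic receptor Grm3 by 1.64 ± 0.31 (adjusted p = 0.0044, but 0.06 without pair 3), whereas the AMPA receptor auxiliary subunit Cacng3 fell by 1.43 ± 0.20 (adjusted p = 0.00058). On the inhibitory side 1 of 10 genes was called, near the share called over all genes. It was Glra1, the adult glycine receptor alpha subunit that relays spinal inhibition onto motor neurons. It measured 16, 12.4 and 8.04 CPM untreated and 3.22, 2.16 and 1.9 CPM with TTX (log2 fold change -2.33 ± 0.33, adjusted p = 0.00065). Of 4 acetylcholine receptor genes tested, the muscarinic receptor Chrm2 fell (-1.83 ± 0.51, adjusted p = 0.036) and the nicotinic subunit Chrna7 rose (1.04 ± 0.24, adjusted p = 0.012, but 0.2 without pair 3).

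The cholinergic genes, which define how a motor neuron speaks to muscle, were mostly lower. Of 5 tested 4 were lower and none higher, with a median log2 fold change of -0.72. Chat, which makes acetylcholine, had 90.9, 61.1 and 59.5 CPM untreated and 44.5, 26.3 and 17.3 CPM with TTX, and the groups did not overlap (log2 fold change -1.32 ± 0.16, adjusted p = 0.00019). In TPM this was 10.1 ± 3.06 to 4.72 ± 1.95 TPM (SD, n = 3 each). The vesicular transporter Slc18a3, whose gene lies inside Chat (mm10, chr14:32462438-32464850), had 97.8, 69.9 and 54.4 CPM untreated and 81.6, 35.1 and 22.2 CPM with TTX, lower with TTX in each pair although the groups overlapped (log2 fold change -0.83 ± 0.17, adjusted p = 0.0075). Acetylcholinesterase, Ache, and the choline transporter Slc5a7 fell by 0.72 ± 0.15 (adjusted p = 0.0081) and 0.53 ± 0.12 (adjusted p = 0.013, but 0.18 without pair 3). Chat also drives the Cre that tags the nuclei, and the part of this in the composition of the libraries was not tested.

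Of 19 motor neuron identity factors 8 were tested and none was called, with a median log2 fold change of 0.13. Over all genes 5.02% were called lower and 5.66% higher, so no call among 8 genes is near that share. In edgeR 0 also passed an unadjusted p under 0.05, DESeq2 called 0, and leaving out pair 2 gave 1 call, Pou3f1 (adjusted p = 0.042). Isl1, the LIM homeodomain factor of motor neurons, had 24.9, 43.8 and 40.8 CPM untreated and 28.8, 39.6 and 43.3 CPM with TTX (log2 fold change 0.04 ± 0.15, adjusted p = 0.92). The lowest p was that of Pou3f1 (0.61 ± 0.28, adjusted p = 0.2). Mnx1 and Isl2, which also mark these cells, were under the filter, at 3.96, 6.98 and 2.92 CPM untreated and 5.16, 2.25 and 2.32 CPM with TTX and 3.17, 1.44 and 3.04 CPM untreated and 3.01, 0 and 2.96 CPM with TTX. Gad1, an enzyme of GABA synthesis known from inhibitory neurons, was detected and fell by 0.78 ± 0.16 (adjusted p = 0.0076). Of the 2 maturation reporters of the study, Spp1, an extracellular phosphoprotein of fast motor neurons, had 963, 1160.4 and 643 CPM untreated and 638, 578 and 304 CPM with TTX (log2 fold change -0.89 ± 0.12, adjusted p = 0.00044), and Thy1, a surface glycoprotein, 165, 114 and 69.3 CPM untreated and 209, 117 and 84.1 CPM with TTX (log2 fold change 0.21 ± 0.12, adjusted p = 0.26).

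Neuropeptide genes included some of large change. Of 14 tested genes of the list, which also holds granins, processing enzymes and Nnat, 4 fell and 2 rose. Neither of the 2 that rose encodes a peptide precursor. Calca, which encodes calcitonin and CGRP, a peptide released by motor neurons at the muscle, had 20.6, 28.3 and 11.6 CPM untreated and 5.59, 0.18 and 0.634 CPM with TTX; the lowest untreated library was above the highest treated one (log2 fold change -3.80 ± 0.64, adjusted p = 0.002). In TPM it went from 11.7 ± 4.45 to 1.11 ± 1.35 TPM (SD, n = 3 each). Calca passed the filter only through its untreated libraries, which favours a gap between the groups. Vip fell as clearly, with 209, 226 and 129 CPM untreated and 77.6, 44.4 and 28.5 CPM with TTX (log2 fold change -1.99 ± 0.16, adjusted p = 1e-05). Gal, induced in injured neurons, fell by 1.16 ± 0.25 (adjusted p = 0.0092), and Pam, which amidates peptides, by 0.64 ± 0.14 (adjusted p = 0.011, but 0.19 without pair 3). Nnat, a small membrane protein best known from developing brain, rose from 3.17, 1.92 and 5.48 CPM untreated to 22.8, 19 and 35.1 CPM with TTX, a change seen in all pairs (log2 fold change 2.94 ± 0.27, adjusted p = 2.8e-05).

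At the presynaptic terminal 5 of 35 vesicle genes fell and 2 rose, beside 5.02% and 5.66% of all genes. The list's median was -0.01, close to that of all genes. Cplx2, a clamp on vesicle fusion, had 32.7, 59.1 and 15.7 CPM untreated and 8.81, 9.47 and 4.44 CPM with TTX (log2 fold change -2.19 ± 0.23, adjusted p = 7.9e-05). The vesicle protein Sv2c fell by 0.85 ± 0.14 (adjusted p = 0.0016), and the fast calcium sensor Syt2 with its SNARE partner Vamp1 by 0.83 ± 0.21 (adjusted p = 0.022, but 0.1 without pair 2) and 0.77 ± 0.22 (adjusted p = 0.044, but 0.22 without pair 2). Stx1a, a plasma membrane SNARE, rose from 61.2, 36.9 and 31.5 CPM untreated to 110.2, 107 and 77.8 CPM with TTX (log2 fold change 1.24 ± 0.14, adjusted p = 0.00013). Of the synaptic adhesion genes 4 of 34 fell and 5 rose. Lrrtm2, a postsynaptic partner of neurexin, fell by 1.41 ± 0.16 (adjusted p = 0.00012), although its exons overlap those of Ctnna1 on the other strand and the counting did not use strand. Cntn3 rose from 1.58, 4.0 and 6.33 CPM untreated to 9.88, 20.0 and 30.2 CPM with TTX (log2 fold change 2.36 ± 0.28, adjusted p = 0.00015), and Lrrtm4 by 1.48 ± 0.21 (adjusted p = 0.00077).

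**Figure D3:**
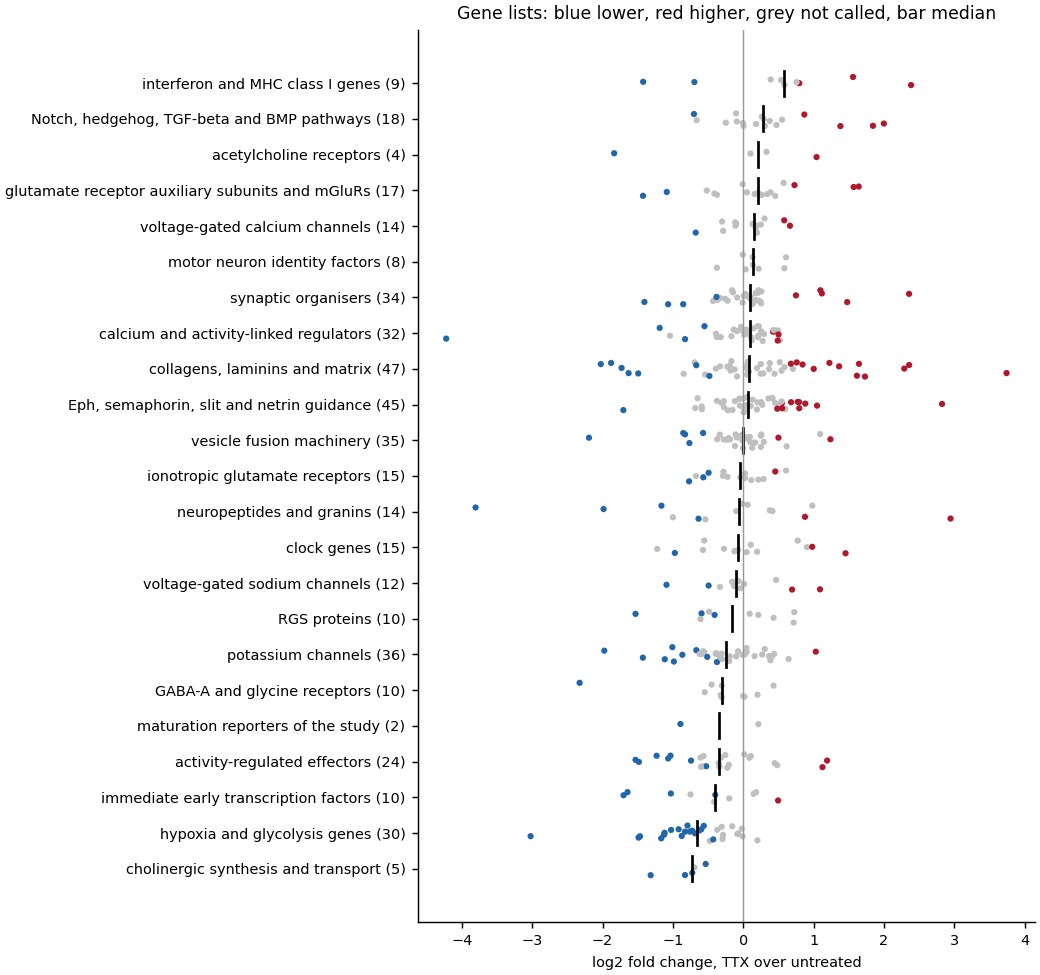
Each row is 1 gene list, with its number of tested members in parentheses, and each point 1 member at its log2 fold change of TTX over untreated (blue lower, red higher, grey not called); black bars are list medians. The cholinergic and the hypoxia and glycolysis lists have medians of -0.72 and -0.66. Only the motor neuron identity list, with 8 tested genes, has no called member.

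Of 45 axon guidance genes tested, 10 rose and 1 fell, with a median log2 fold change of 0.07 against 0.01 over all genes. Epha4, a repulsive receptor that steers motor axons, had 2.57, 1.07 and 2.19 CPM untreated and 12, 10.55 and 15.8 CPM with TTX (log2 fold change 2.82 ± 0.35, adjusted p = 0.00026). Epha4 passed the filter only through its TTX libraries, which favours a gap between the groups. Epha3 rose from 61.2, 70.4 and 51.6 CPM untreated to 120.1, 129 and 128 CPM with TTX, without overlap (log2 fold change 1.05 ± 0.12, adjusted p = 0.00015). Nrp1, a semaphorin co-receptor, rose by 0.88 ± 0.15 (adjusted p = 0.0022), the ephrin Efnb2 by 0.79 ± 0.14 (adjusted p = 0.0029) and Sema4f by 0.80 ± 0.13 (adjusted p = 0.0017). The gene that fell was Slit3, a secreted repellent, with 202, 71.5 and 136 CPM untreated and 71.1, 20.6 and 38.5 CPM with TTX (log2 fold change -1.70 ± 0.12, adjusted p = 4.8e-06).

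Matrix genes split, with 12 of 47 higher and 7 lower. Col11a1, a fibrillar collagen, had 14.8, 19.9 and 13.8 CPM untreated and 56.1, 116 and 67.8 CPM with TTX (log2 fold change 2.29 ± 0.16, adjusted p = 4.4e-06). Col25a1, a transmembrane collagen with a role in muscle innervation, had 1.58, 2.02 and 1.1 CPM untreated and 5.16, 38.4 and 21.1 CPM with TTX (log2 fold change 3.74 ± 0.43, adjusted p = 0.00013). The proteases diverged: Adamts9 rose by 2.36 ± 0.31 (adjusted p = 0.00037), while Adamts1 fell from 128, 237 and 191 CPM untreated to 38.9, 80.2 and 50.1 CPM with TTX (log2 fold change -1.73 ± 0.12, adjusted p = 4.4e-06). The inhibitor Timp3, whose exons overlap Syn3 on the other strand, fell by 2.02 ± 0.18 (adjusted p = 2e-05) and the laminin Lama5 by 1.88 ± 0.22 (adjusted p = 0.00015). Beside these results, the summed level of 15 fibroblast markers was 87.1, 64.3 and 9.26 CPM untreated and 270.5, 285.5 and 11.6 CPM with TTX, and Col3a1 had 20.8, 19.9 and 0.244 CPM untreated and 70.2, 79.9 and 0.211 CPM with TTX. In pair 3, where Col1a1 was at 0 in both libraries, the 12 matrix genes called higher had a median log2 ratio of 1.15, against 1.26 and 1.65 in pairs 1 and 2. These genes were called from a fit that includes all 3 pairs. Without pair 3, 5 fibroblast markers were themselves called higher.

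The hypoxia and glycolysis list moved in 1 direction, in that 18 of 30 tested genes fell and none rose, with a median log2 fold change of -0.66. The values were negative in 28, 26 and 28 of the 30 genes in pairs 1, 2 and 3, and 14 remained called lower with pair 3 left out. Bnip3, a mitochondrial protein induced by HIF, had 66.5, 122 and 36.5 CPM untreated and 20.0, 37.5 and 19 CPM with TTX (log2 fold change -1.49 ± 0.17, adjusted p = 0.00012). Aldoc, a glycolytic aldolase, had 71.3, 53.3 and 37.4 CPM untreated and 22.3, 21.9 and 28.1 CPM with TTX, with no overlap between groups (log2 fold change -1.13 ± 0.21, adjusted p = 0.0035). Ndrg1 and the prolyl hydroxylase P4ha2 fell by 1.17 ± 0.19 (adjusted p = 0.0017) and 1.12 ± 0.21 (adjusted p = 0.0039), and Mxi1, an antagonist of Myc, by 1.47 ± 0.30 (adjusted p = 0.0075, but 0.053 without pair 3). Ak4, a mitochondrial adenylate kinase, had 10.1, 7.67 and 7.55 CPM untreated and 0, 0.541 and 3.17 CPM with TTX, near the detection limit with TTX (log2 fold change -3.02 ± 0.62, adjusted p = 0.0069). The core of the hypoxia response element, ACGTG or GCGTG on either strand, was in 84.0% of the 25 promoters of the 18 genes. It was in 57.8% of the promoters of all genes called lower, in 61.5% of those called higher and in 63.0% of all promoters. The list was written to hold hypoxia genes, which favours a high share of this element. Its share among list members not called was not computed, so the element is not tied to the change with TTX. Of 7 mitochondrially encoded mRNAs tested, 5 were higher (median 0.52), among them mt-Co1 (0.52 ± 0.13, adjusted p = 0.023, but 0.34 without pair 3), and no call of that list held without pair 3. The 13 on the list summed to 527.1, 526.2 and 357.5 CPM untreated and 651.8, 648.5 and 652.5 CPM with TTX. These mRNAs are made in mitochondria, while the libraries came from purified nuclei. The part of carry-over into the nuclear preparations was not tested.

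Smaller lists held a few further calls. Of 15 clock genes, Dbp rose from 12.9, 7.3 and 8.16 CPM untreated to 32.4, 23.6 and 20.1 CPM with TTX (log2 fold change 1.45 ± 0.22, adjusted p = 0.0011), Per2 rose by 0.98 ± 0.28 (adjusted p = 0.036, but 0.19 and 0.25 without pairs 1 and 3 in turn) and Bhlhe40 fell by 0.97 ± 0.14 (adjusted p = 0.0008). Exons of Dbp overlap those of Sphk2 (mean 13.4 CPM) on the other strand, and the counting did not use strand. Among interferon and MHC class I genes, H2-K1 and H2-D1, which present antigen, fell by 1.42 ± 0.27 (adjusted p = 0.0045) and 0.69 ± 0.16 (adjusted p = 0.015, but 0.083 without pair 3), whereas Stat2 and Gbp9 rose (0.80 ± 0.15 and 2.38 ± 0.38, adjusted p = 0.0037 and 0.0014), as did Ifit3 (1.56 ± 0.38, adjusted p = 0.019, but 0.18 without pair 1). Fst, a secreted antagonist of activin, had 22, 65.5 and 59.9 CPM untreated and 87.9, 180.3 and 261 CPM with TTX, and each treated library lay above each untreated one (log2 fold change 1.84 ± 0.14, adjusted p = 6e-06). The activin receptor Acvr1c rose by 0.87 ± 0.14 (adjusted p = 0.0017) and Acvr1b fell by 0.70 ± 0.19 (adjusted p = 0.031, but 0.052 and 0.21 without pairs 1 and 3 in turn).

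Of the genes named only for size, Nupr1 had 12.9, 29.5 and 15.7 CPM untreated and 1.07, 0.361 and 0.211 CPM with TTX (log2 fold change -5.32 ± 0.49, adjusted p = 2.8e-05). Grpr, the receptor of gastrin-releasing peptide, had 16.8, 16.5 and 16.7 CPM untreated and 6.23, 0.361 and 0.634 CPM with TTX, and the neurotensin receptor Ntsr2 11.7, 18.8 and 8.16 CPM untreated and 0.43, 1.08 and 3.17 CPM with TTX; log2 fold changes were -3.37 ± 0.58 and -3.17 ± 0.52 (adjusted p = 0.0025 and 0.0019). The phospholipase D family gene Pld5 fell from 28.7, 31.9 and 44 CPM untreated to 3.01, 3.52 and 5.92 CPM with TTX (log2 fold change -3.10 ± 0.23, adjusted p = 5.1e-06). Ccdc184, Rhbdl3, Slc28a2 and Adgrd1 completed this set, with log2 fold changes of -4.84 ± 0.63, -3.42 ± 0.49, -3.41 ± 0.34 and -3.38 ± 0.35. Upward, Tm4sf1 had 28.1, 28 and 23.7 CPM untreated and 167, 88.8 and 287 CPM with TTX (log2 fold change 2.58 ± 0.26, adjusted p = 4.8e-05) and Hmga2, a chromatin protein of proliferating cells, 3.56, 1.44 and 4.87 CPM untreated and 24.3, 5.95 and 38.9 CPM with TTX (log2 fold change 2.62 ± 0.30, adjusted p = 0.00012). The complement gene C3, which astrocytes and microglia also make, had 0.99, 4.96 and 36.5 CPM untreated and 8.81, 62.6 and 77.3 CPM with TTX, rising within each pair from very different baselines (log2 fold change 2.40 ± 0.40, adjusted p = 0.0019). Reg3b, Kank4, Arhgap6, Trhr and Vmn2r77 rose by 3.26 ± 0.35, 2.85 ± 0.36, 2.69 ± 0.41, 2.56 ± 0.36 and 2.48 ± 0.30. Nupr1, Grpr, Ntsr2 and Pld5 passed the filter of 5 CPM only through their untreated libraries, and Hmga2 and C3 only through their TTX libraries.

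Markers of other cells were read beside these results. Lilr4b, a leukocyte receptor, had 188, 115 and 108 CPM untreated and 12.5, 7.3 and 7.4 CPM with TTX (log2 fold change -3.92 ± 0.14, adjusted p = 2.7e-09), and its near-identical neighbour Lilrb4a, with which it may share reads, fell by 2.92 ± 0.27 (adjusted p = 2.8e-05). Microglia themselves were hardly represented: 15 other markers, Cx3cr1 and Csf1r among them, summed to between 2.80 and 8.74 CPM in the 6 libraries, and Tyrobp held no count in any of them. The summed level of 16 astrocyte markers was 112.7, 155.5 and 203.5 CPM untreated and 123.3, 206.5 and 215.7 CPM with TTX; of 6 tested, Gja1, Slc1a3 and Glul rose (1.39 ± 0.32, 1.70 ± 0.37 and 0.57 ± 0.13, adjusted p = 0.013, 0.009 and 0.014) and the glutamate transporter Slc1a2 fell by 1.20 ± 0.18 (adjusted p = 0.0011). Cycling and progenitor markers summed to 164.5, 164.7 and 160.7 CPM untreated and 327.8, 378.0 and 291.8 CPM with TTX. Most of this was Vim, an intermediate filament of glia and progenitors, with 140.4, 127 and 134 CPM untreated and 288, 269 and 245 CPM with TTX (log2 fold change 1.00 ± 0.11, adjusted p = 0.00011), joined by Nes (1.34 ± 0.37, adjusted p = 0.032, but 0.28 without pair 2) and the spindle protein Prc1 (1.74 ± 0.22, adjusted p = 0.00026). General neuronal markers had a median of 0.03, and among them Nefh was lower (-0.78 ± 0.12, adjusted p = 0.0016). Rbfox3 was lower too (-0.96 ± 0.25, adjusted p = 0.025, but 0.08 and 0.15 without pairs 1 and 3 in turn), and Tubb3 (0.53 ± 0.11, adjusted p = 0.0069, but 0.055 without pair 3) and Stmn2 (0.46 ± 0.11, adjusted p = 0.013, but 0.17 without pair 3) were higher. Endothelial Flt1 and the oligodendrocyte gene Omg, the only tested members of their lists, fell by 0.95 ± 0.21 (adjusted p = 0.011, but 0.082 without pair 3) and 1.83 ± 0.34 (adjusted p = 0.0042, but 0.058 without pair 3), and pluripotency markers summed to at most 2.80 CPM. The 9 endothelial markers summed to 27.9, 39.5 and 20.1 CPM untreated and 21.7, 22.9 and 7.4 CPM with TTX. The 11 oligodendrocyte markers summed to 17.6, 20.9 and 26.4 CPM untreated and 20.2, 9.56 and 15.4 CPM with TTX, higher with TTX in pair 1. The part of other cells in the changes was not tested. In bulk nuclei, fewer nuclei of a type and less RNA per nucleus cannot be told apart.

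**Figure D4:**
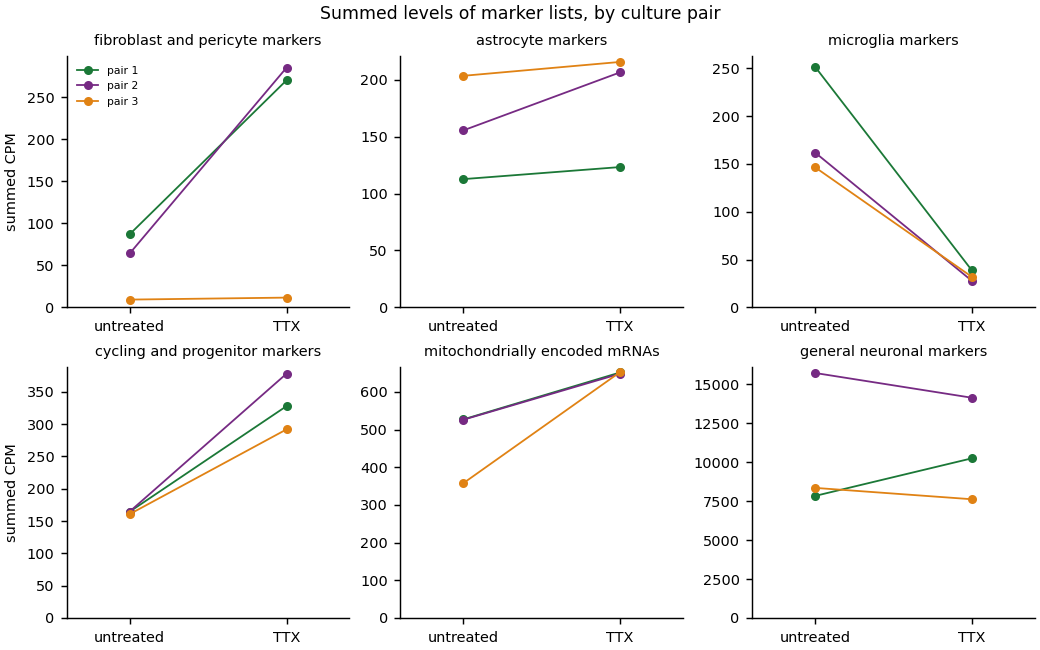
Each panel gives the summed CPM of 1 marker list in the untreated and TTX libraries, with lines joining the cultures of a pair and axes starting at 0. Fibroblast and pericyte markers rise in pairs 1 and 2 and stay near 10 CPM in pair 3; the fall in the microglia panel is that of Lilr4b and Lilrb4a.

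Levels over culture time placed these genes beside the untreated course, on a common scale of 10 in vitro libraries and with no test, since the DIV28 libraries serve both comparisons. Vip averaged 0 CPM at DIV0, 2.89 at DIV7, 201 at DIV28, against 53.1 after TTX; Spp1 averaged 0.114 CPM at DIV0, 28.8 at DIV7, 986 at DIV28, against 537 after TTX. Calca averaged 0.477 CPM at DIV0, 4.42 at DIV7, 21.6 at DIV28, against 2.26 after TTX, and Kcna2 4.7 CPM at DIV0, 29.9 at DIV7, 130.5 at DIV28, against 58.9 after TTX. In these genes, which TTX lowered, the untreated mean was highest at DIV28. Among genes that TTX raised, Nnat averaged 122 CPM at DIV0, 125 at DIV7, 3.74 at DIV28, against 27 after TTX, Fst 0.114 CPM at DIV0, 187 at DIV7, 52.5 at DIV28, against 186 after TTX and Col11a1 26.3 CPM at DIV0, 58.2 at DIV7, 17.3 at DIV28, against 84.8 after TTX. Scn3b averaged 118 CPM at DIV0, 81.9 at DIV7, 17.5 at DIV28, against 37.2 after TTX. Their untreated means were lower at DIV28 than at DIV7. The genes named are examples, and no count over genes is given because the untreated DIV28 libraries enter both comparisons. Other genes had other courses. Acvr1c, raised by TTX, averaged 0.363 CPM at DIV0, 20.9 at DIV7, 45.9 at DIV28, against 81.4 after TTX, and Camk1, also raised, 16.7 CPM at DIV0, 61.3 at DIV7, 110.1 at DIV28, against 155 after TTX. Slit3, lowered by TTX, averaged 947 CPM at DIV0, 135 at DIV7, 145 at DIV28, against 45.8 after TTX, and Chat 333 CPM at DIV0, 70.0 at DIV7, 75.1 at DIV28, against 31.1 after TTX.

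**Figure D5:**
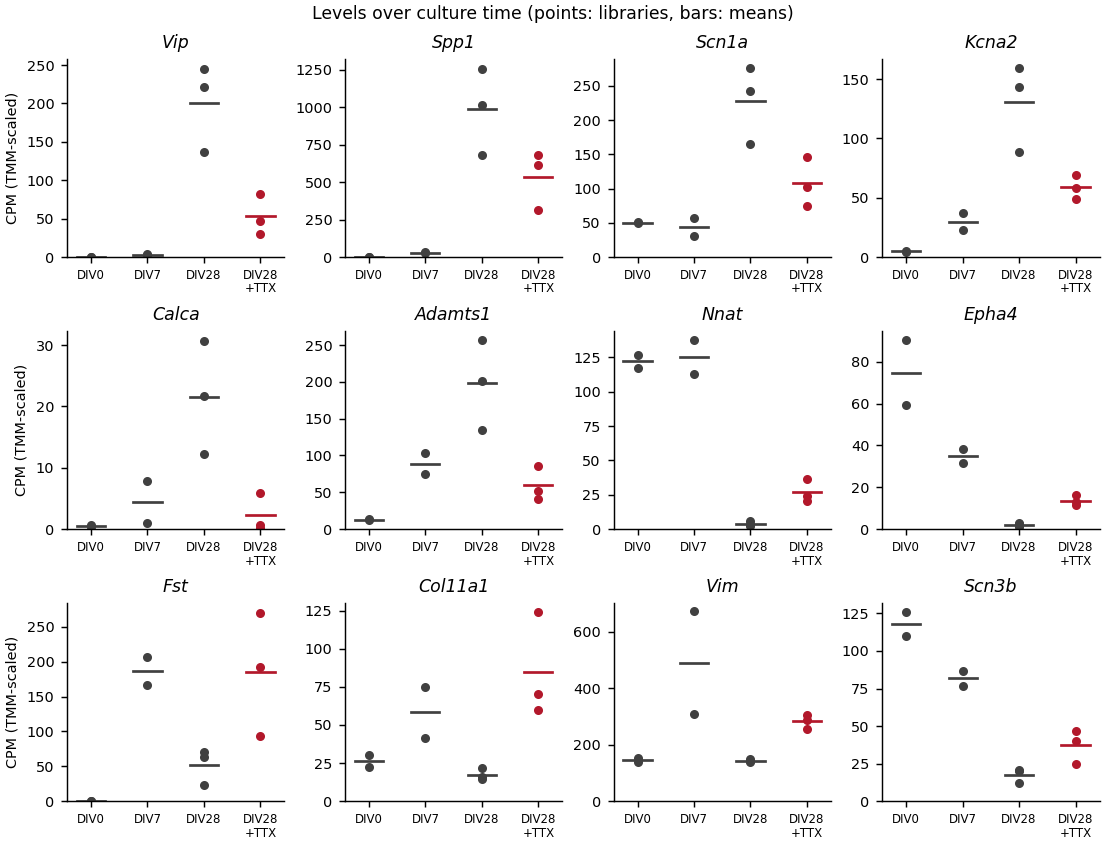
Each panel gives the CPM of 1 gene in the 10 in vitro libraries, scaled together, with points for libraries and bars for means (grey untreated, red TTX). Vip, Spp1, Scn1a and Kcna2 are highest in untreated DIV28 cultures, and Nnat, Epha4, Fst and Scn3b are lower there than with TTX.

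Open chromatin was read from 2 ATAC-seq libraries per condition, as the number of the 60000 strongest peaks of each library within 50 kb of a gene's start. Genes called lower had 4.36 and 4.34 peaks per gene in the untreated and 4.22 and 4.12 in the TTX libraries, and genes called higher 4.04 and 3.98 and then 4.03 and 3.98. Over all tested genes the numbers were 4.39 and 4.37, and 4.27 and 4.27. The mean for genes called lower was thus 4.17% lower with TTX, beside a 2.51% fall over all genes and 0.04% for genes called higher, with no test on 2 libraries a group.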

How the data were processed

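Nuclear RNA was sequenced from purified motor neuron nuclei with a stranded total RNA kit after ribosomal depletion. The authors trimmed reads with Trim Galore, aligned them to mm10 with STAR 2.5.2b and deposited RSEM 1.3.0 expected counts and TPM per gene, without further normalisation; default settings were used, so strand was not counted and reads of overlapping antisense genes cannot be told apart. Besides Lrrtm2, Timp3 and Dbp, this limit touches other named genes, such as Arhgap6 (with Hccs, mean 10.3 CPM) and Prc1 (with Rccd1, mean 7.37 CPM). The authors called ATAC peaks with MACS2 2.2.7.1 in each library and deposited their −log10 p.

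Expected counts were rounded, and genes were kept where all replicates of 1 condition or both reached 5 CPM (10764 of 55385). Genes under 5 CPM in 1 group passed only through the other group, which favours a gap between the groups. They were scaled by TMM and fitted in R 4.3.3 with edgeR 4.0.16 (quasi-likelihood test, pair and treatment as terms, 6 libraries); p-values were Benjamini-Hochberg adjusted over all genes. The pair was a block because the study's notes on its expression values pair same-numbered cultures, grown in parallel with or without TTX, and because, once the group means were removed, libraries sharing a number correlated above 0.1 in every pair. Replicates came from 1 cell line. With the pair as a block, the p-values measure the spread of the TTX difference between the 3 pairs, and not the spread between cultures or lines. TPM was used to compare genes. Totals of 4206305 to 21823500 counts set the precision; fold changes of genes at a few CPM rest on few reads.

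The members and gene lists were chosen with earlier results of these data known. Named genes were the 12 largest changes per direction that moved alike in all pairs (gene models aside), up to 6 called members per list or else the member of lowest p, a fixed set (sodium channels, Chat, Slc18a3, Slc5a7, Isl1, Isl2, Mnx1, Thy1, Spp1, Fos, Npas4, Bdnf and Arc) and the highest member of each marker list; list members outside these are named only for counts. Lists are described by counts and medians, with no set test. Annotation was GENCODE M21 (mm10). The fit was tested on simulated data, and 12 alternative fits were run, among them DESeq2 1.42.0.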

Additional observations from a re-analysis of the deposited data

How the results depend on the processing

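The adjusted calls (540 lower, 609 higher) depended most on the replicate block. Without the pair as a block, 13 and 4 genes were called in the 6 libraries, 18 and 9 in a fit of all 10 in vitro libraries, and 6 and 0 with the disputed library left out, where 615 genes had an unadjusted p under 0.05 in edgeR; at the study's limits these fits gave 45 and 20, 52 and 36, and 41 and 20. Of the 1149 called genes, 17 stayed under the threshold without the block, among them Nfatc2, Kcnn2, Lilr4b, Nupr1, Col11a1 and Epha4. Without the filter on low counts 860 genes were lower, with 299 and 239 at the study's limits, and scaling by library size alone gave 965 higher. Leaving out a whole pair gave 293 to 623 lower and 310 to 779 higher genes, and 134 to 215 and 136 to 185 at the study's limits; the lowest adjusted counts were those without pair 3, which holds the disputed library. Of the 135 named genes called, 95 stayed called without pair 3, 118 without pair 1, 122 without pair 2 and 119 in DESeq2. Nefm, not called in the 6 libraries, changed sign without pair 1 (-0.31, adjusted p = 0.0013 in edgeR), with 0.03 in all pairs and -0.31 to 0.22 when a pair was left out. The cause of these differences was not tested. For peaks near genes called lower, the difference was -1.24% with the top 30000 peaks, -3.94% within 10 kb and -4.40% within 100 kb, and for genes called higher 4.30%, 2.21% and -0.98%. Over all tested genes it was 0.59%, -0.44% and -2.84% at these settings. Genes under about 5 CPM, Fos among them, were too shallow to test.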

Other observations

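Further families were read after the results above were seen. Of 12 tubulin genes tested 6 were higher with TTX and none lower (median log2 fold change 0.41). Tubb2b, a tubulin of developing neurons, had 222, 169 and 87.4 CPM untreated and 462, 361 and 181 CPM with TTX in pairs 1, 2 and 3 (log2 fold change 1.07 ± 0.11, adjusted p = 6.5e-05 in edgeR), and it was one of 2 tubulins still called without pair 3. Of 72 cytosolic ribosomal protein genes 11 were higher and none lower (median 0.35; 3 without pair 3), and of 22 genes of cholesterol synthesis and uptake 6 were higher (median 0.21; 1 without pair 3), such as the mevalonate kinase gene Mvk (log2 fold change 0.99 ± 0.22, adjusted p = 0.01 in edgeR). The noncoding RNA Malat1 held 13.2, 20.2 and 15.6% of counts untreated and 9.11, 17.0 and 12.3% with TTX in pairs 1, 2 and 3. Gm26917 held 7.68, 4.2 and 7.25% untreated and 5.41, 3.5 and 5.19% with TTX. Whether the libraries differed in their mix of nuclear and cytoplasmic RNA was not tested.

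Cyclic nucleotide phosphodiesterases, which end cAMP and cGMP signals, went down in 5 of 13 cases and up in none (median -0.59), with Pde2a at 22, 7.09 and 11.8 CPM untreated and 8.38, 2.52 and 7.18 CPM with TTX (log2 fold change -1.20 ± 0.30, adjusted p = 0.021 in edgeR; 0.13 without pair 1); 1 was called without pair 3. Receptor tyrosine phosphatases rose in 5 of 15 cases. Ptprt, an adhesion receptor of neurons, had 19.8, 32.3 and 18.9 CPM untreated and 72.4, 51.3 and 60.2 CPM with TTX, with no overlap between the groups (log2 fold change 1.36 ± 0.21, adjusted p = 0.0011 in edgeR; 0.0018 without pair 3).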
